A study of Mus musculus with 10 samples.

Results

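In all, 10 genes that mark the fetal liver or the bile ducts were examined in livers of mice given an adenovirus for the histone demethylase Phf2. They were Afp, H19, Igf2, Gpc3 and Dlk1, which the fetal liver transcribes and the adult hepatocyte largely silences, and Krt19, Krt7, Sox9, Epcam and Cd24a, which the cells lining the bile ducts use. A member was represented by the array feature that the platform annotation pairs with its symbol alone, and by the brightest such feature where there were several. In this way 9 of the 10 members were found among 19938 genes, each through 1 feature, and H19 is not analysed here. Whole livers came from male C57BL/6J mice, and 10 Affymetrix Gene ST arrays, 1 per mouse, read their RNA. Of these, 5 mice (Phf2 mice) had received an adenovirus encoding Phf2 and 5 (GFP mice) one encoding the fluorescent protein GFP. All mice were injected in the tail vein at 8 weeks of age and their livers were taken 3 weeks later from fed animals. The controls thus share the viral vector but not the transgene, no source used here names the promoter behind the adenoviral transgene, and mice without overexpression were removed from the cohorts, per the methods. Values are log2 after RMA, which corrects the background and brings the arrays to a similar distribution, so that a difference of 1 is a doubling. A difference between group means, Phf2 minus GFP, is called a log2 fold change.

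The fetal liver is built of hepatoblasts, bipotent cells that give rise to hepatocytes and to cholangiocytes, the epithelial cells of the bile ducts. Hepatoblasts secrete α-fetoprotein, a relative of albumin, and the growth factor IGF2, and carry the surface proteins Gpc3 and Dlk1. These genes are turned off in hepatocytes after birth and can return in regeneration and in liver tumours. Cholangiocytes keep the keratins Krt7 and Krt19, the transcription factor Sox9 and the adhesion molecule Epcam, and these genes also mark the small ductular cells that appear in injured liver. None of the duct genes is restricted to the liver. Pancreatic ducts, and for some of them the mesothelium or blood cells, use them as well.

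Promoter sequence is shown for Afp, the defining gene of the fetal liver, and for Krt7, the gene that lay closest to the threshold. The letters are the 250 bases before the start of each gene, 5′ to 3′, from the RefSeq annotation of GRCm38.p6, which held an entry for 6 of the members, and the Afp stretch lies at chr5:90490464-90490713 and the Krt7 stretch at chr15:101412153-101412402, both on the plus strand. Capitals mark matches on either strand to the motifs GTTAAT and GTTAAC, parts of the site of the hepatocyte factor HNF1, to the TATA box motif TATAAA, to the E-box CACGTG and to the antioxidant response element core TGACNNNGC.
Afp: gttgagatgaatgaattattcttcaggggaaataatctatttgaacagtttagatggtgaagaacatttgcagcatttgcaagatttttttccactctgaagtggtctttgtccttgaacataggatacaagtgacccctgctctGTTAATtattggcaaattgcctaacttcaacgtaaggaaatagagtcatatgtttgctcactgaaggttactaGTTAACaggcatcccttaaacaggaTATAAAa
Krt7: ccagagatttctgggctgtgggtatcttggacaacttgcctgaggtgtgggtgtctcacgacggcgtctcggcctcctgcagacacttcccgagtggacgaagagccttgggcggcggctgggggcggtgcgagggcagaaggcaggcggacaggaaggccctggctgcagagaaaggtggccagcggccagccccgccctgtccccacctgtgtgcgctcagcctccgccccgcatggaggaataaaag
The Afp stretch held 1 GTTAAT, beginning 105 bases before the start, GTTAAC at 32 bases and TATAAA at 7 bases. Over 32851 promoter stretches of this length, 6.43% held GTTAAT, 2.56% GTTAAC and 12.4% TATAAA. The Krt7 stretch held no match to any of these motifs. E-box letters (6.02% of all stretches) and the antioxidant core (10.2%) occurred in neither stretch, and no binding was measured here.

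The liver label was borne out by hepatocyte markers. Alb, named after its values were seen, averaged 12.74 ± 0.11 in GFP and 12.73 ± 0.08 in Phf2 mice (SD, n = 5 each). Arrays correlated with each other at 0.978 to 0.9932. The Phf2 feature read 6.50, 6.54, 6.53, 6.32 and 6.34 in GFP replicates 1 to 5 and 6.31, 6.27, 6.58, 6.45 and 6.37 in Phf2 replicates 1 to 5. It differed by -0.05 on the log2 scale (limma, standard error 0.08, adjusted p = 0.751), so it gives no check of the labels, after which the groups are named here, and no source used here says whether it reads the viral transcript. Of all genes, 1083 were higher and 846 lower in Phf2 mice at an adjusted p of 0.05 from limma with Benjamini-Hochberg adjustment. Several arrays stood apart in epithelial genes. GFP replicate 1 had a mean of 11.96 over 16 pancreatic acinar markers, against 5.86 to 7.86 on the other GFP arrays and 5.53 to 10.20 on the Phf2 arrays. GFP replicate 4 had the highest value of Cftr, the chloride channel of duct epithelium, and of the keratin Krt20. Phf2 replicate 3 had the highest Krt5 and Krt14, keratins of stratified epithelium. Values without these arrays are given beside each marker whose highest or lowest array was one of them.

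None of the 9 measured markers passed the test between Phf2 and GFP mice. At an adjusted p of 0.05 from limma, 0 of the 9 were higher (5.43% of all genes) and 0 lower (4.24%), and 9.67% of all genes were called in either direction. At an unadjusted p of 0.05, 1 of the 9 (Krt7) passed, against 22.2% of all genes. No marker had a 1.5-fold difference with an unadjusted p under 0.05 (3.54% of all genes), the fold and p that the study names without saying whether p was adjusted, and none had groups without overlap (9.08% of all genes). Of the log2 fold changes, 8 were above 0 and 1 (Igf2) was below, and they ran from -0.02 to 0.68, with medians of 0.09 for the 4 fetal liver genes and 0.17 for the 5 duct genes beside -0.01 over all genes. In whole liver, a change in the number of cells of a type and a change in RNA per cell cannot be told apart.

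**Figure D1:**
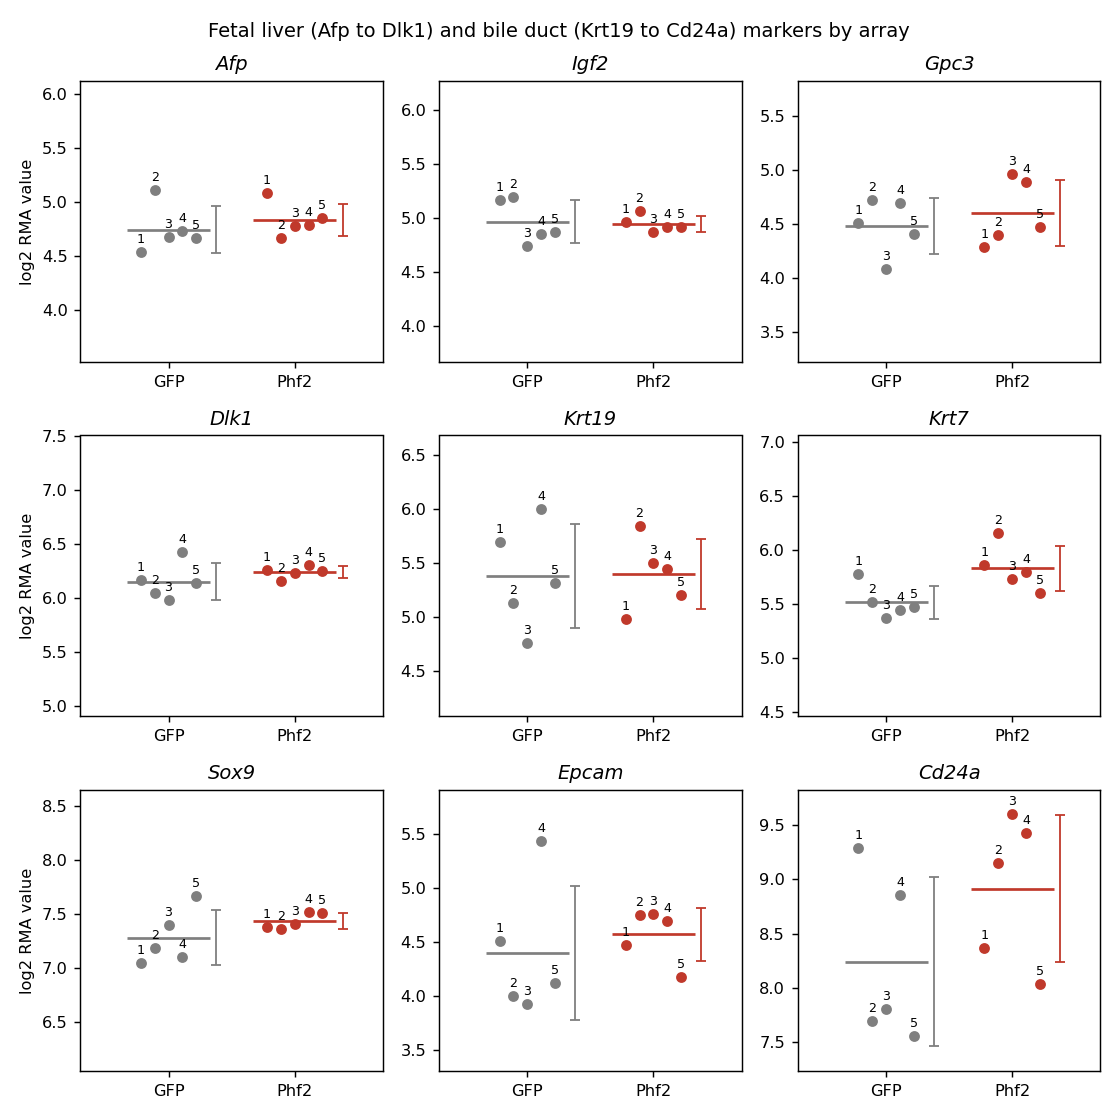
Expression (log2 RMA value, vertical axis, each panel spanning 2.6 units) of the 9 measured markers in 5 GFP mice (grey) and 5 Phf2 mice (red). Numbers are replicates, long lines group means and bars the SD. The groups overlap in every panel, and the mice of a group lie farthest apart for Cd24a, over 1.74 in GFP mice.

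Among the fetal liver genes, Afp, which encodes α-fetoprotein (chromosome 5, feature 10523078), read 4.54, 5.11, 4.67, 4.73 and 4.66 in GFP replicates 1 to 5 and 5.08, 4.67, 4.78, 4.78 and 4.85 in Phf2 replicates 1 to 5. The highest value in each group came from 1 mouse, GFP replicate 2 and Phf2 replicate 1, and the other 8 mice lay between 4.54 and 4.85. The log2 fold change was 0.09 (standard error 0.11, 95% interval -0.14 to 0.32, adjusted p = 0.703 from limma), and a two-sided exact permutation test gave p = 0.452. The upper end of the interval lay below a 1.5-fold rise. This bounds the signal of a dim feature, at percentile 36.62 of mean level, and not the transcript itself. The difference was 0.18 (adjusted p = 0.257) without GFP replicate 2, 0.04 without GFP replicate 1 and 0.03 without Phf2 replicate 1.

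Igf2, the growth factor of fetal life that signals through the receptor Igf1r and is cleared by Igf2r (chromosome 7, feature 10569344), read 5.17, 5.19, 4.74, 4.85 and 4.87 in GFP mice and 4.96, 5.06, 4.87, 4.92 and 4.92 in Phf2 mice. All 5 Phf2 mice lay inside the range of the GFP mice, with GFP replicates 1 and 2 the highest of all. Its log2 fold change was -0.02 (standard error 0.09, 95% interval -0.22 to 0.18, adjusted p = 0.942), with an exact permutation p of 0.849, and its sign turned without GFP replicate 1 (0.03), GFP replicate 2 (0.04) or Phf2 replicate 3 (0.0012).

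Gpc3, a heparan sulfate proteoglycan that is also a marker of liver cancer (chromosome X, feature 10604576), read 4.50, 4.72, 4.08, 4.69 and 4.40 in GFP mice and 4.28, 4.39, 4.96, 4.89 and 4.47 in Phf2 mice. Phf2 replicates 3 and 4 lay above all GFP mice, while Phf2 replicate 1 lay below all GFP mice except replicate 3. The log2 fold change of 0.12 (standard error 0.15, 95% interval -0.21 to 0.45, adjusted p = 0.728, exact permutation p = 0.516) was 0.02 without GFP replicate 3, 0.03 without Phf2 replicate 3 and 0.04 without Phf2 replicate 4, and reached 0.20 without Phf2 replicate 1.

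Dlk1, a membrane protein of the Notch ligand family that marks hepatoblasts (chromosome 12, feature 10398319), read 6.16, 6.05, 5.98, 6.43 and 6.14 in GFP mice. In Phf2 mice it read 6.26, 6.16, 6.23, 6.30 and 6.25, a range of 0.14 that lay wholly within the range of 0.45 in GFP mice. Its log2 fold change was 0.09 (standard error 0.08, 95% interval -0.09 to 0.26, adjusted p = 0.593, exact permutation p = 0.302), and 0.16 (adjusted p = 0.173) without GFP replicate 4, the highest array of all for this gene. It was 0.05 without GFP replicate 3, the lowest.

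Of the duct genes, Krt7, a type II keratin of simple epithelium, lay nearest to the threshold. It lies on chromosome 15 (feature 10427052) and read 5.78, 5.52, 5.37, 5.45 and 5.47 in GFP mice and 5.86, 6.16, 5.73, 5.80 and 5.61 in Phf2 mice. Every Phf2 mouse lay above GFP replicates 2 to 5, and the overlap came from GFP replicate 1, which stood above Phf2 replicates 3 and 5. The log2 fold change was 0.31 (standard error 0.10, 95% interval 0.09 to 0.54, adjusted p = 0.0872 from limma), a 1.24-fold difference, with an exact permutation p of 0.0238 that is not adjusted for the 9 genes tested. Without GFP replicate 1, the array highest in pancreatic markers, Krt7 passed with 0.38 (adjusted p = 0.0440), and it also passed without Phf2 replicate 5 (0.37, adjusted p = 0.0445) and with the mean of the pancreatic markers as a covariate (0.32, adjusted p = 0.0320). Over the other alternatives its adjusted p ran up to 0.180.

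Krt19, the type I keratin of duct cells (chromosome 11, feature 10391036), read 5.69, 5.13, 4.76, 6.00 and 5.32 in GFP mice and 4.99, 5.85, 5.50, 5.44 and 5.21 in Phf2 mice. The Phf2 mice lay inside the GFP range, whose ends were GFP replicates 3 and 4. The log2 fold change was 0.01 (standard error 0.22, 95% interval -0.45 to 0.48, adjusted p = 0.980, exact permutation p = 0.952), and its sign was not settled, since it was 0.17 without GFP replicate 4 and -0.14 without GFP replicate 3.

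Sox9, the transcription factor that specifies duct cells (chromosome 11, feature 10382328), read 7.05, 7.19, 7.40, 7.10 and 7.67 in GFP mice and 7.38, 7.37, 7.41, 7.53 and 7.51 in Phf2 mice. The Phf2 mice spanned 0.16, against 0.62 in GFP mice, and only GFP replicate 5 lay above all of them. GFP replicates 1 and 4, which stood apart in other epithelial genes, were the lowest 2 arrays for Sox9. Its log2 fold change was 0.16 (standard error 0.11, 95% interval -0.08 to 0.39, adjusted p = 0.457, exact permutation p = 0.198). It was 0.25 (adjusted p = 0.0798) without GFP replicate 5, 0.10 without GFP replicate 1 and 0.11 without GFP replicate 4.

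Epcam, the adhesion molecule of epithelia (chromosome 17, feature 10447383), read 4.51, 4.00, 3.93, 5.44 and 4.12 in GFP mice and 4.47, 4.75, 4.76, 4.69 and 4.17 in Phf2 mice. GFP replicate 4 was the highest of all 10 arrays, and all Phf2 mice lay above GFP replicates 2, 3 and 5. The log2 fold change of 0.17 (standard error 0.25, 95% interval -0.36 to 0.71, adjusted p = 0.755, exact permutation p = 0.571) rose to 0.43 without GFP replicate 4, where it also did not pass (adjusted p = 0.102), and to 0.27 without Phf2 replicate 5. It was 0.07 without GFP replicate 2, 0.05 without GFP replicate 3 and 0.10 without GFP replicate 5.

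Cd24a, a small anchored surface glycoprotein of duct cells, had the widest difference and the widest spread. It lies on chromosome 10 (feature 10362896) and read 9.29, 7.69, 7.80, 8.85 and 7.55 in GFP mice and 8.37, 9.15, 9.60, 9.43 and 8.03 in Phf2 mice. GFP replicates 1 and 4 and Phf2 replicates 2, 3 and 4 lay at 8.85 or above, and the other 5 mice at 8.37 or below, so that both groups held high and low mice. The log2 fold change was 0.68 (standard error 0.38, 95% interval -0.14 to 1.501, adjusted p = 0.335, exact permutation p = 0.190), which is 1.60-fold. Without GFP replicate 1 it was 0.94 (adjusted p = 0.141), without GFP replicate 4 it was 0.83 (adjusted p = 0.265), without Phf2 replicate 3 it was 0.51 (adjusted p = 0.551), and its adjusted p did not pass under any of the 21 alternatives. At 1.5-fold and an unadjusted p of 0.05 it passed without GFP replicate 1, without Phf2 replicate 5 (0.90) and with the pancreatic covariate (0.69). Its pooled SD of 0.73 was larger than that of 99.33% of all genes, and those of Epcam (0.47) and Krt19 (0.41) were larger than those of 98.62% and 98.02%. Cd24a averaged 8.24 in GFP mice, against 7.28 for Sox9, 5.52 for Krt7, 5.38 for Krt19 and 4.40 for Epcam. Which cells gave its signal was not tested.

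**Figure D2:**
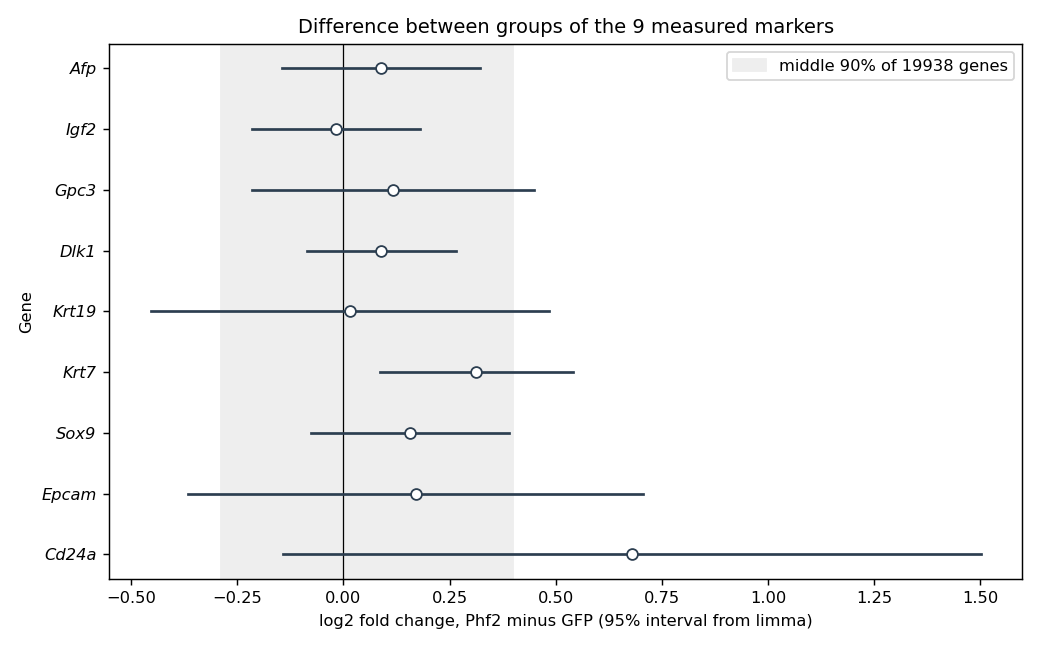
Log2 fold change (Phf2 minus GFP, horizontal axis) of the 9 measured markers with the 95% interval from limma. Open points mark that no marker passed an adjusted p of 0.05, the grey band is the middle 90% of all genes (-0.29 to 0.40), and Krt7 is the marker whose interval (0.09 to 0.54) lies above 0.

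The spread among mice of a group was shared by several duct genes. In GFP mice, Krt19, Epcam and Dlk1 ranked the 5 arrays in the same order, with replicate 4 highest, then 1, 5, 2 and 3. GFP replicate 4 also had Cftr at 5.20, against 3.04 to 3.19 on the other GFP arrays and 3.07 to 3.36 on the Phf2 arrays. Its Krt20 value was 5.87, and the tight junction gene Cldn7 (6.37) and the epithelial factor Ehf (5.94) were also highest there, as named after their values were seen. Its pancreatic marker mean was 5.86, the lowest of the GFP arrays. GFP replicate 1, by contrast, was highest in pancreatic markers and in the mucin Muc1 (6.30). It was also the highest GFP array for Krt7 and Cd24a.

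In Phf2 mice, replicates 2, 3 and 4 were the highest 3 arrays for Krt19, Epcam and Cd24a. Krt7 did not share this, with Phf2 replicates 2, 1, 4, 3 and 5 from highest to lowest. Nor did Sox9, with Phf2 replicates 4, 5, 3, 1 and 2. Over the 10 arrays, Sox9 relative to group means ran against Krt19, Epcam and Cd24a (Pearson r of -0.454, -0.521 and -0.587). Krt7 ran with them (0.497, 0.231 and 0.463). Phf2 replicates 2, 3 and 4 had means of 10.20, 9.50 and 8.16 over the pancreatic markers, against 5.53 and 5.71 in replicates 1 and 5. They also stood apart in proliferation markers, with means of 5.98, 5.94 and 5.93 against 5.07 and 4.95 in Phf2 replicates 1 and 5 and 4.76 to 4.97 in GFP mice. Of 9 proliferation genes, 3 were higher in Phf2 mice, among them Top2a (1.31) and Cdk1 (1.00). Both calls were lost without the 3 arrays highest in pancreatic markers, GFP replicate 1 and Phf2 replicates 2 and 3. The log2 fold changes were then 0.90 for Top2a (adjusted p = 0.254) and 0.64 for Cdk1 (adjusted p = 0.0825). That fit has fewer arrays and also lacks Phf2 mice that were high in proliferation markers. Means over 12 genes of stellate cells and fibroblasts were 6.65, 6.78 and 6.61 in Phf2 replicates 2, 3 and 4 and 5.93 to 6.25 on all other arrays, with 2 genes higher (Dpt and Lum). The part of these cell types in the duct genes was not tested.

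**Figure D3:**
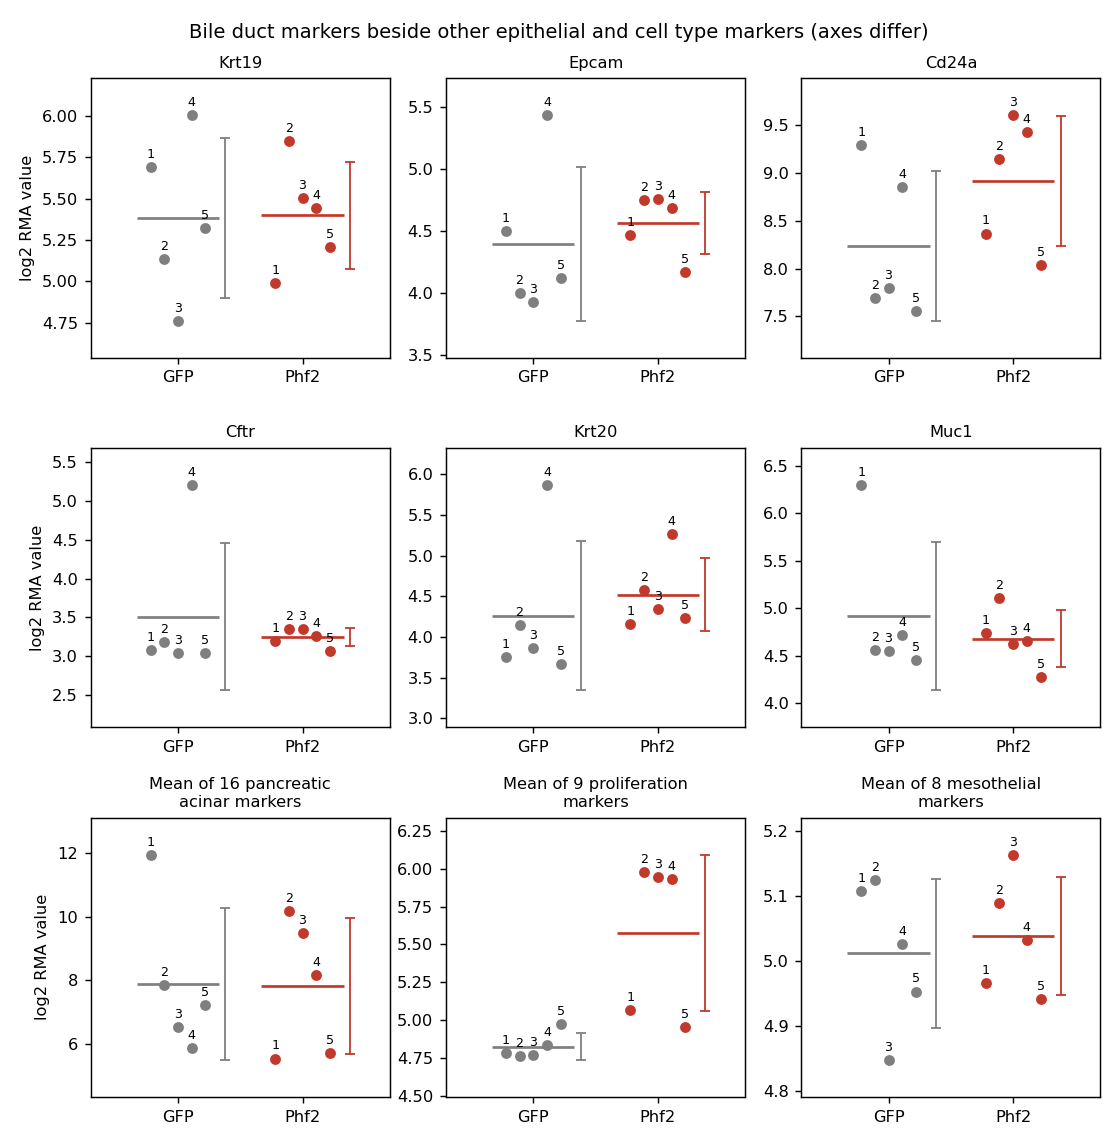
Values of 3 bile duct markers (Krt19, Epcam, Cd24a), of 3 other epithelial genes (Cftr, Krt20, Muc1) and of 3 marker means by array, on the log2 RMA scale with an axis for each panel. Grey points are GFP mice and red points Phf2 mice, numbered by replicate, with group means and SD bars. GFP replicate 4 stands out in Cftr at 5.20, GFP replicate 1 in Muc1 at 6.30 and in pancreatic markers at 11.96, and Phf2 replicates 2 to 4 in proliferation markers at 5.93 to 5.98.

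Markers of other cell types that the liver sample could hold were read beside these genes. Of 8 mesothelial markers 0 passed the test, and their mean lay at 4.85 to 5.13 in GFP mice and 4.94 to 5.16 in Phf2 mice. Of 8 B cell markers 0 passed, with means of 4.48 to 4.64 and 4.45 to 4.96, and of 9 neutrophil markers 0 passed, with means of 4.53 to 4.74 and 4.58 to 4.86. Of 5 erythroid markers, 1 was lower (Alas2, the erythroid enzyme of haem synthesis, with a log2 fold change of -0.89). None of the 16 pancreatic markers passed, and their median log2 fold change was -0.06. Of 8 hepatocyte markers, 4 were lower in Phf2 mice and 0 higher, with a median of -0.18, beside 4.24% and 5.43% of all genes. Their mean was 11.76, 11.62 and 11.61 in Phf2 replicates 2, 3 and 4. It was 11.93 and 11.95 in Phf2 replicates 1 and 5, and 11.97 to 12.07 in GFP mice.

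Within groups, the pattern of Cd24a over the 10 arrays was most like those of Crip1 and Tspan13, with Pearson r of 0.963 and 0.960 between values taken relative to their group mean. For Epcam these were Cgref1 (0.972) and Arg2 (0.969), for Krt19 Trim54 (0.945) and Sfrp1 (0.914), for Krt7 Pold1 (0.915) and Foxc2 (0.904), and for Sox9 Dph6 (0.969) and Utp20 (0.951). The fetal genes were most like Zfp518b (0.952) and Olfr624 (0.951) for Afp, Doc2b (0.959) and Olfr15 (0.957) for Igf2, Bri3 (0.946) and Ssbp2 (0.941) for Gpc3, and Prune2 (0.976) and Cxcr5 (0.963) for Dlk1. Each pair was picked as the highest over all genes and describes only these 10 arrays. Of these genes Crip1 rose in Phf2 mice, by 1.03 (adjusted p = 0.00768).

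Genes around the fetal markers moved in part. Zhx2 and Zbtb20, which repress Afp after birth and were named after their values were seen, had log2 fold changes of -0.08 (adjusted p = 0.672) and -0.21 (adjusted p = 0.242). Of 8 regulators of the fetal genes, 2 were lower, Foxa1 (-0.46, adjusted p = 0.0108) and Cebpa (-0.32, adjusted p = 0.0497). Afm, a neighbour of Afp in the albumin gene family, fell by 0.79 (standard error 0.08, adjusted p = 5.79e-05), from 9.75 ± 0.11 to 8.95 ± 0.13 (SD, n = 5), with no overlap. Alb had a value of -0.01 (adjusted p = 0.940), which was 0.01 after a further quantile normalization. Among the relatives of Gpc3 and Dlk1, 1 of 6 was lower, Gpc4 (-0.38, adjusted p = 0.00438).

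Of 10 other genes listed as fetal or oncofetal, 3 were higher in Phf2 mice and 0 lower, beside 5.43% and 4.24% of all genes. The list was drawn up with earlier results of these data known, so its count cannot be weighed against these shares. The higher genes included Scd2, a desaturase of fetal liver and brain (2.42, standard error 0.22, adjusted p = 3.70e-05). They also included the lipoprotein lipase Lpl (0.90, adjusted p = 0.00873), which is low in adult hepatocytes. The RNA-binding protein Igf2bp3 (0.45, adjusted p = 0.00199), named after its value was seen, was also higher, and 7 genes did not pass the test. Scd2 and Lpl are also genes of lipid metabolism, and whether their rise reflects a fetal state was not tested. The list had a median of 0.12. Of 18 imprinted genes besides Igf2 and Dlk1, 1 was higher (Peg10, 0.57, adjusted p = 0.0407) and 1 lower (the amino acid transporter Slc38a4, -0.39, adjusted p = 0.0133), with a median of -0.03. Of 14 other genes of the IGF system, 2 were higher and 4 lower, with a median of -0.05. The receptor Insr rose by 0.37 (adjusted p = 0.00774) and Igf2r by 0.31 (adjusted p = 0.0381), while the carriers of circulating IGF, Igfals and Igfbp2, fell by 1.57 (adjusted p = 0.000161) and 1.07 (adjusted p = 0.000280).

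Around the duct markers, 3 of 18 other cholangiocyte markers were higher and 0 lower, with a median of 0.19, beside 5.43% and 4.24% of all genes. This list, too, was drawn up with earlier results known, and its count cannot be weighed against these shares. The largest rise was that of the keratin Krt23 (1.25, standard error 0.24, adjusted p = 0.00549), from 5.13 ± 0.22 to 6.38 ± 0.61 (SD, n = 5). The others were the RNA-binding protein Bicc1 (0.76, adjusted p = 0.0421) and the tetraspanin-like Tm4sf4 (0.32, adjusted p = 0.0390), named after its value was seen. Tm4sf4 averaged 10.18 in GFP mice, against 5.38 for Krt19 and 4.40 for Epcam, and which cells gave its signal was not tested. All 3 genes were highest in Phf2 replicates 2, 3 and 4, the mice high in proliferation markers and in stellate cell and fibroblast markers. Those mice were also the highest of the Phf2 mice in pancreatic markers and the lowest in hepatocyte markers. The part of these cell types in the 3 rises was not tested. Cftr (-0.26) and Muc1 (-0.235) lay below 0 without passing, each with 1 far higher GFP array. Of 14 genes of the Notch pathway, which drives duct formation, 0 passed, and the smallest p values belonged to the targets Nrarp (0.35, adjusted p = 0.0572) and Hey1 (0.33, adjusted p = 0.0600). Nrarp passed under 6 of 21 alternatives, with the replicate block among them (adjusted p = 0.0446). Hey1 passed under 3, among them without GFP replicate 2, its far highest GFP array (0.44, adjusted p = 0.00122). Over the other alternatives the adjusted p ran up to 0.523 for Nrarp and 0.381 for Hey1. Of 14 genes of the Hippo-YAP pathway, 1 was higher, the DNA-binding partner Tead1 (0.69, adjusted p = 0.00899). None of 7 other keratins passed, with Krt18 at -0.11 (adjusted p = 0.354) and Krt8 at 0.16 (adjusted p = 0.504). Over the 111 genes of the 10 lists, 10 were higher (9.01%) and 9 lower (8.11%), and the higher ones numbered 6 under median centring and 3 without the 3 arrays highest in pancreatic markers. The calls of Peg10, Igf2r, Cebpa, Bicc1 and Tm4sf4 were each lost under 12 of 21 alternatives, that of Dpt under 13, that of Lum under 8 and that of Top2a under 5. Those of Lpl, Tead1, Slc38a4 and Cdk1 were lost under 2 and those of Foxa1, Gpc4, Insr and Crip1 under 1, whereas those of Afm, Scd2, Igf2bp3, Igfals, Igfbp2, Krt23 and Alas2 held under all 21.

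**Figure D4:**
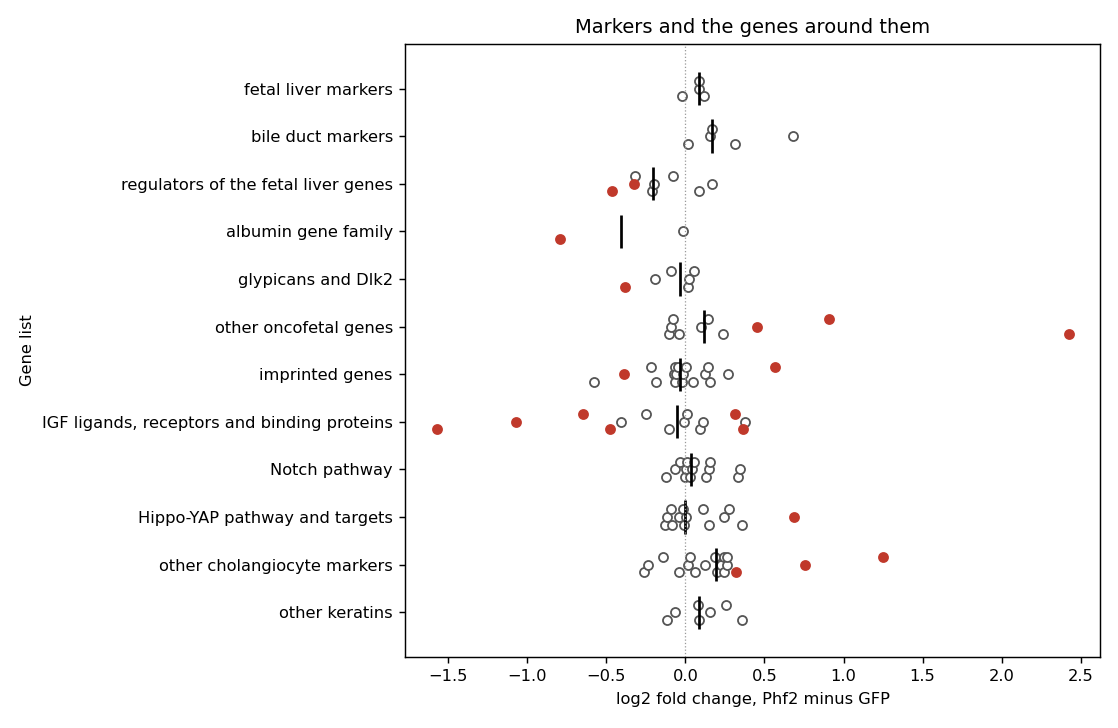
Log2 fold change (Phf2 minus GFP, horizontal axis) of the fetal liver and bile duct markers and of the genes in 10 related lists. Red points had an adjusted limma p under 0.05, white points did not, and a vertical bar gives each list's median. No point of the upper 2 rows is red, and the largest value is that of Scd2 (2.42).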

How the data were processed

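RNA of 10 mouse livers (5 GFP, 5 Phf2) was hybridised to Affymetrix Gene ST arrays. The authors normalized them with RMA in Bioconductor, used Partek GS for quality control and statistics, and deposited log2 values for 35556 features. No source used here gives versions or a genome build. The methods name a human array, whereas the feature numbers match a mouse annotation. Groups came from the sample titles. Of the features, 21789 had 1 symbol, 1621 had several and 12146 had none. Symbols were updated by gene number (21698 matched to GRCm38.p6). The brightest feature stood for each of 19938 genes, 999 of which had several. Phf2 arrays were tested against GFP arrays in R 4.3.3 with limma 3.58.1 (no covariate), adjusted by Benjamini-Hochberg over all genes at 0.05. Simulated data with known changes were used to test the scripts. For the members, a two-sided exact permutation test was added, with 0.00794 as its smallest p. Precision is limited by the number of arrays, and the limma p-values set a difference in means against the spread between these mice. Genes named are the members, up to 2 called genes per direction of each list by size of change (the 2 smallest p values where none was called), and the 2 genes most like each member. A gene outside this rule is said to be named after its value was seen. Alternatives were another test, filter, normalization, set of features, block or covariate and each array left out. The members and lists were chosen with earlier results of these data known.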

Additional observations from a re-analysis of the deposited data

Results flagged for a closer look

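Among 124 groups of 5 arrays (62 genes named by the rule), 5 held a mouse whose gap to its nearest neighbour exceeded 0.71 of the range of the group, where chance gives about 1 in 20. A further 5 came from 17 genes named after their values were seen, for which the rate by chance is no yardstick. None of the 9 fetal liver and bile duct markers was among them. Among GFP mice, replicate 4 was far the highest for Cftr (5.20, the next at 3.19) and Krt20 (5.87, the next at 4.15). Replicate 1 was far the highest for Muc1 (6.30, the next at 4.72) and for the pancreatic gene Cuzd1 (10.26, the next at 4.77). Phf2 replicate 3 stood above the other Phf2 arrays for Krt5 (6.51, the next at 4.39) and Krt14 (6.43, the next at 5.16), and the next highest of all arrays for Krt14 was GFP replicate 1 at 5.30. GFP replicate 2 stood apart for Hey1 (5.92) and Olfr624 (3.30), Phf2 replicate 4 for the B cell gene Ms4a1 (5.19) and Phf2 replicate 2 for Olfr15 (3.50). Cftr, Krt20, Muc1, Krt5 and Krt14 were named after their values were seen.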

How the results depend on the processing

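Over 21 alternatives, 174 of 189 log2 fold changes of the markers kept their direction and their side of the threshold, 12 changed sign and 3 passed it. The markers past the adjusted threshold numbered 1 (Krt7, higher) with the pancreatic covariate (0.32) and at an adjusted p of 0.10, and 0 to 1 when each array was left out. Those past 1.5-fold and an unadjusted p of 0.05 numbered 1 (Cd24a) with that covariate and 0 to 1 when each array was left out. Without 1 array, the log2 fold change ran from -0.074 to 0.0385 for Igf2, from -0.14 to 0.17 for Krt19 and from 0.23 to 0.38 for Krt7. Krt19 was -0.0224 after a further quantile normalization and -0.0046 under median centring. Without the 3 arrays highest in pancreatic markers, a choice made after seeing the data, Igf2 was 0.0194 and Krt19 -0.0916, and all genes past the threshold fell to 365 higher and 230 lower. Alb was 0.0126 after a further quantile normalization and ran from -0.0534 to 0.0207 without 1 array. The cause of these shifts was not tested. The methods' t-test called 694 genes higher, and an adjusted p of 0.01 left 523 higher and 399 lower. Median centring gave 829 higher and 959 lower, and leaving out each array 727 to 1220 higher and 571 to 912 lower. Of the genes in the related lists, 4 were higher by the methods' t-test, 6 under median centring, over all features and at an adjusted p of 0.01, 17 at 0.10, 6 to 13 when each array was left out and 3 without the 3 arrays, which left 4 lower. Same-numbered arrays did not deviate together (correlations of -0.29 to -0.04 over genes), and no GFP array correlated best with the Phf2 array of its own number. With the replicate number as a block, 0 markers passed, Krt7 stayed at 0.31 (adjusted p = 0.0821), and 855 genes were higher and 659 lower. The number of arrays and the low signal of some features limit what could be detected. Mean level lay at percentile 30.00 for Epcam, 31.34 for Gpc3, 36.62 for Afp and 40.26 for Igf2.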
